A study of Mus musculus with 12 samples.

Results

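The glutathione S-transferases described here are 10 mouse genes, chosen by symbol among the 22036 known genes of a table of 33625 genes: Gsta1, Gsta2, Gsta3 and Gsta4 of the alpha class, Gstm1, Gstm2 and Gstm5 of the mu class, Gstp1 of the pi class, Gsto1 of the omega class and Gstk1 of the kappa class. They were followed in MODE-K cells, a line labelled as small-intestinal epithelium of the mouse, after gamma rays from a cobalt source. The 12 RNA-seq libraries formed 4 groups of 3: 12Gy_48h (12 Gy, harvested at 48 h), 12Gy_24h (12 Gy, 24 h), 4Gy_48h (4 Gy, 48 h) and control (0 Gy, 0 h). All groups share 1 cell line of wild-type genotype, and the control cells were harvested at 0 h, so that dose and time in culture cannot be told apart in any comparison with control. The labels speak of parallel groups without saying that these were separate cultures. The p-values set group differences against the scatter between these libraries, and that scatter could be purely technical.

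Glutathione S-transferases join the tripeptide glutathione to electrophiles, such as lipid peroxidation products and many drugs, so that the conjugate can be pumped out of the cell. The alpha, mu and pi classes are cytosolic enzymes built as dimers, the omega class mainly reduces its substrates, and the kappa enzyme sits in mitochondria and peroxisomes. In mouse intestine and liver, many alpha and mu genes rise when the transcription factor NRF2 is released from KEAP1, and alpha-class enzymes are abundant in enterocytes.

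The family sits in clusters of close relatives, which limits how reads can be told apart. On GRCm38, Gsta1 lies at chr9:78230656-78242684 on the plus strand, next to Gm3776, an annotated protein-coding copy at chr9:78257129-78269166. Their coding sequences of 669 bases differ at 2 bases, an identity of 99.7%. Gsta2, at chr9:78331018-78355788 on the minus strand, is 97.6% identical to Gsta1, and Gm10639, at chr9:78289923-78305525, is 97.0% identical. Gsta4, at chr9:78182774-78209349 on the plus strand, is only 66.8% identical to Gsta1. Gsta2 differs from Gsta1 at 16 of 669 compared positions, but not in the first 90 coding bases. That stretch was chosen because Gsta1 and Gm3776 differ in it as much as in any other of its length. It is shown for the copies with capitals at the base that differs:
Gsta1: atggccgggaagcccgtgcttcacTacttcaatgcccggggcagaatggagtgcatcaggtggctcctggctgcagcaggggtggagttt
Gm3776: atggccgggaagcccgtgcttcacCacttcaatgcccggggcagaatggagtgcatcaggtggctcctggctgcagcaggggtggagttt
Gsta2: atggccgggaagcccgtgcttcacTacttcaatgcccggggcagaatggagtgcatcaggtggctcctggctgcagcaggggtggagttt

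Gstp1, at chr19:4035407-4037985 on the minus strand, has a copy, Gstp2, at chr19:4040285-4046023 on the same strand. Their coding sequences differ at 12 of 630 bases, an identity of 98.1%. The first 90 bases, chosen as a stretch where they differ most, hold 6 of these differences, shown in capitals:
Gstp1: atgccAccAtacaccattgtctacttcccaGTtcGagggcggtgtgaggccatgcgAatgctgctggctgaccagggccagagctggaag
Gstp2: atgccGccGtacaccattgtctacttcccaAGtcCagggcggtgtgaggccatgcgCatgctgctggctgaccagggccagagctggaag
The remaining members are further apart from one another. Among mu genes outside the 10, Gstm7 shares 85.3% of coding bases with Gstm2, and Gstm3 shares 85.2% with Gstm2 and 79.9% with Gstm1. Gstm1 (chr3:108012255-108017973, minus strand), Gstm2 (chr3:107981702-107986453, minus strand) and Gstm5 (chr3:107895821-107898686, plus strand) share 65.6 to 76.8% of their coding bases, counted over the longer sequence of each pair. Gstm1 and Gstm2 have 562 identical bases, and the sequence used is 732 bases long in Gstm1 and 654 in Gstm2. The unpaired bases of Gstm1 thus lower its shares. Gsto1 (chr19:47854970-47864790, plus strand) shares 67.1% with its neighbour Gsto2. Gsta3 lies at chr1:21240589-21265661 and Gstk1 at chr6:42245935-42250447, both on the plus strand. All 10 are annotated as protein coding, and 178 exonic bases of Gstm5 overlap 4933431E20Rik on the opposite strand, whose reads cannot be told apart from those of Gstm5 unless counting used strand, which the sources used here do not give.

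The copies also share the sequence before their starts. The 100 bases upstream of Gsta1 (GRCm38.p6, chr9:78230556-78230655, plus strand) and of Gm3776 (chr9:78257029-78257128, plus strand) differ at 0 bases in RefSeq's promoter table, and are shown once for each because both genes were higher after 12 Gy:
Gsta1: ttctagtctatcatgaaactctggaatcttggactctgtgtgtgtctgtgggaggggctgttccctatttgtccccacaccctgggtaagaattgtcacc
Gm3776: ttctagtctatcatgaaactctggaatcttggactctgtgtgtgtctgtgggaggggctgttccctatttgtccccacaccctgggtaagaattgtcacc
Both strands of the 250 bases before each RefSeq start were searched for 3 short motifs, in the 9 of 10 members with an entry. Gsta4 had no entry and was not searched. Sites further upstream and looser forms of the motifs were not looked for, so a missing match does not mean that a gene lacks the element. TGACNNNGC, the core of the antioxidant response element that NRF2 binds, occurred before Gsta3 and Gstm5, and in 10.1% of 27025 mouse promoters. GCGTG, the core of the element bound by the aryl hydrocarbon receptor, occurred before Gsta2, Gstm1, Gstm5 and Gstp1, and in 28.3% of promoters; in Gstm5, 1 of its matches overlaps the TGACNNNGC match and another the TGAGTCA match. TGAGTCA, an AP-1 site whose search was added after the promoters had been read, occurred before Gstm5, Gstp1 and the copy Gstp2, and in 4.43% of promoters. In Gstp1 and Gstp2 this match runs on as TGAGTCAgc, which departs from TGACNNNGC only by G in place of C. The 30 bases around that match, in capitals, are the same in Gstp1 (chr19:4037968-4037997) and Gstp2 (chr19:4042292-4042321), read on the minus strand. The GENCODE annotation starts Gstp1 within this stretch and has Gstp2 starting further upstream:
Gstp1: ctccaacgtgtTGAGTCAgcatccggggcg
Gstp2: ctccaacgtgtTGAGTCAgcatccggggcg

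The libraries held 3616416 to 4831641 reads assigned to genes, so that 3 reads correspond to 0.621 to 0.830 CPM, the deposited reads of a gene scaled to a common library total. Control replicate 1 was the deepest library and differed most from the others of its group. Reads on new loci assembled by the study's authors made up 14.0 to 15.1% of the 12Gy_48h libraries, 11.9 to 12.0% of 12Gy_24h, 15.1 to 16.9% of 4Gy_48h and 19.8 to 21.7% of control libraries. This share was lower in every irradiated library, and known genes lay higher as a body: their median log2 fold change against control was 0.20 at 12Gy_48h, 0.23 at 12Gy_24h and 0.14 at 4Gy_48h. Each comparison was therefore also fitted to known genes alone, whose median lay within 0.011 of 0 in all 5 comparisons. Values from that fit are given for many results below, though not for all. Of 8 epithelial markers, Cldn3 and Cldn7 were at 0 in all libraries, Epcam and Cdh1 averaged at most 0.181 CPM in any group, and the list summed to 7.25 to 9.10 CPM in 12Gy_48h, 11.9 to 16.7 CPM in 12Gy_24h, 5.71 to 7.39 CPM in 4Gy_48h and 1.32 to 5.38 CPM in control, mostly Krt18. The 7 enterocyte markers summed to at most 2.15 CPM in any library, with Alpi at 0. The 6 fibroblast markers summed to 249 to 312 CPM in 12Gy_48h, 272 to 334 CPM in 12Gy_24h, 252 to 283 CPM in 4Gy_48h and 181 to 198 CPM in control, mostly Col1a2, with Lum at 0. The labelled epithelial identity thus rests on few reads in these libraries. Of 6 immune cell markers, Ptprc, Cd3e and Adgre1 were at 0, and the list, mostly Cd68, summed to 40.8 to 47.2 CPM in 12Gy_48h, 20.7 to 34.9 CPM in 12Gy_24h, 15.4 to 22.1 CPM in 4Gy_48h and 22.1 to 28.3 CPM in control. The 4 endothelial and 5 hepatocyte markers summed to at most 1.11 and 4.56 CPM in any library. The mean annotated exonic length of known genes, weighted by reads, was 3356.4 to 3357.5 bases in 12Gy_48h, 3257.6 to 3271.2 bases in 12Gy_24h, 3246.8 to 3307.7 bases in 4Gy_48h and 3125.5 to 3269.0 bases in control, with 12Gy_48h above all other groups. The part of the marker, new-locus and length shifts in the results below was not tested. In bulk libraries, a change in the share of cells that express a gene and a change in the RNA of each cell cannot be told apart.

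Gstp1 carried most of the family's reads in every group. The 10 genes together held 1831 ± 63.5 CPM at 12Gy_48h, 1955 ± 101 CPM at 12Gy_24h, 1351 ± 125 CPM at 4Gy_48h and 1183 ± 197 CPM in control (SD, n = 3 each). Gstp1 made up 70.0 ± 0.747% of this sum at 12Gy_48h, 72.3 ± 2.30% at 12Gy_24h, 66.9 ± 0.991% at 4Gy_48h and 70.1 ± 3.05% in control. Alpha-class genes made up 5.05 ± 0.770% at 12Gy_48h, 3.49 ± 0.250% at 12Gy_24h, 1.80 ± 0.391% at 4Gy_48h and 1.46 ± 0.524% in control, and every 12 Gy library lay above every other library on this share. Mu-class genes made up 5.30% of the sum on average at 12Gy_24h and 6.67 to 7.10% in the other groups.

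Per kilobase of annotated exon, the level of Gstp1 in control was 538 ± 113 CPM per kb, followed by Gsto1 at 125 ± 6.44, Gstm2 at 29.4 ± 5.05, Gstm1 at 17.0 ± 4.80, Gsta4 at 8.63 ± 0.956, Gsta1 at 6.35 ± 5.41 and Gstm5 at 4.03 ± 0.845 CPM per kb. The ranges of Gsta1 and both of its neighbours in this order overlapped. At 12Gy_48h the order after Gstp1 (828 ± 37.4 CPM per kb) and Gsto1 (162 ± 9.17 CPM per kb) was Gsta1 at 49.0 ± 19.97, Gstm1 at 45.1 ± 3.88, Gsta4 at 35.9 ± 2.31, Gstm2 at 35.6 ± 1.86 and Gstm5 at 2.92 ± 0.398 CPM per kb. The range of Gsta1 there (26.9 to 65.7 CPM per kb) overlapped those of Gstm1, Gsta4 and Gstm2. The ranges of Gsta4 and Gstm2 also overlapped. The labels name an Illumina library protocol, whereas the assembled loci carry the prefix ONT, a style used with long reads. If reads span whole transcripts, which these sources do not settle, CPM itself is the comparable level. By mean CPM the control order was the same, whereas Gstm1 and Gstm2 stood above Gsta1 and Gsta4 at 12Gy_48h. There the range of Gsta1 (25.7 to 62.8 CPM) overlapped those of Gstm1, Gstm2 and Gsta4.

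**Figure D1:**
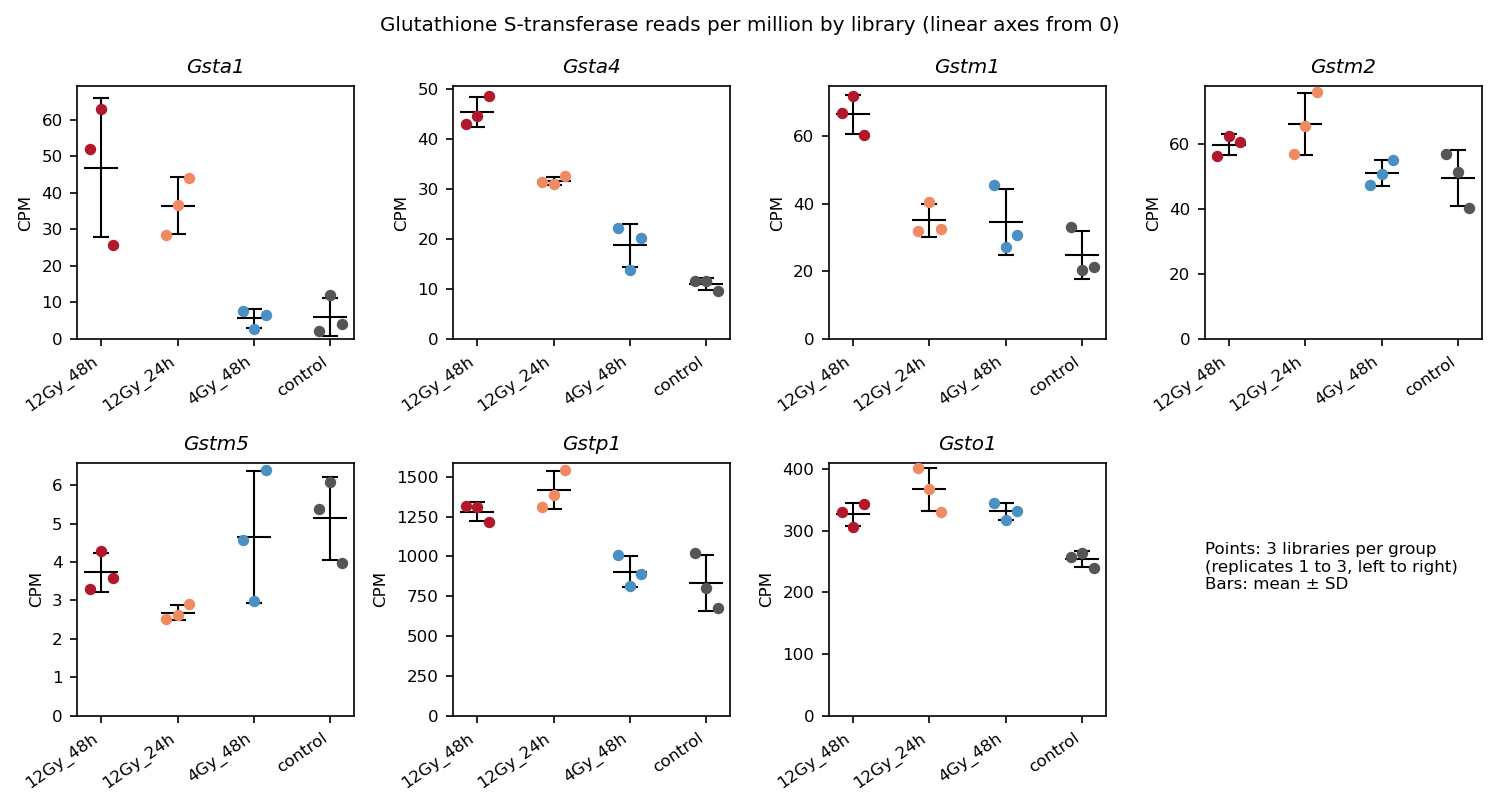
CPM (linear axes from 0) of the 7 members with enough reads to test, in each library of the 12Gy_48h, 12Gy_24h, 4Gy_48h and control groups; points are libraries and bars the mean and SD of 3. All 6 libraries given 12 Gy lie above all others for Gsta1 and Gsta4, and the 12Gy_48h libraries lie above all others for Gstm1.

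Gsta1, an alpha-class enzyme of broad substrate range, showed the largest differences of the family. It had 52.1, 62.8 and 25.7 CPM in the 12Gy_48h libraries, 28.6, 36.5 and 44.2 CPM in 12Gy_24h, 7.64, 2.73 and 6.67 CPM in 4Gy_48h and 2.07, 11.9 and 4.23 CPM in control. Both 12 Gy groups lay above control without overlap, whereas 4Gy_48h and control overlapped. The log2 fold change against control was 2.92 ± 0.56 at 12Gy_48h (SE; edgeR quasi-likelihood test, Benjamini-Hochberg adjusted p = 0.0042) and 2.73 ± 0.57 at 12Gy_24h (adjusted p = 0.00349), and both also passed among known genes alone (2.74 and 2.50, adjusted p = 0.0139 and 0.0204). Leaving out 1 library at a time gave 2.49 to 3.85 at 12Gy_48h and 2.30 to 3.71 at 12Gy_24h, the highest value in both cases without control replicate 2 and the lowest without control replicate 1. At 4Gy_48h it was -0.04 ± 0.72, with an adjusted p of 0.984 and a 95% interval from -1.67 to 1.59. The libraries of these groups scattered widely, on 10 to 45 reads each, and changes of a size within this interval are not excluded. The log2 fold change at 4Gy_48h was positive without 4Gy_48h replicate 2 (0.32) and without control replicate 2 (0.90). Against 4Gy_48h, 12Gy_48h was higher by 2.96 ± 0.57 (adjusted p = 0.0233), with no overlap; this passed in 1 of the 6 fits that each left out a library, the one without 12Gy_48h replicate 3, and its adjusted p ran from 0.0177 to 0.0956 over them. The 12Gy_48h and 12Gy_24h groups overlapped and differed by 0.19 (95% interval -0.85 to 1.23, adjusted p = 0.79). Of all 15086 tested genes, 25.9% at 12Gy_48h, 18.2% at 12Gy_24h and 12.9% at 4Gy_48h lay above control without overlap. For 12Gy_48h, 39.2% of genes lay above 12Gy_24h in this way and 19.3% above 4Gy_48h.

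Gsta4, which conjugates the lipid peroxidation product hydroxynonenal, separated all 4 groups. Its levels were 43.0, 44.6 and 48.7 CPM at 12Gy_48h, 31.4, 31.1 and 32.5 CPM at 12Gy_24h, 22.2, 13.9 and 20.3 CPM at 4Gy_48h and 11.6, 11.7 and 9.53 CPM in control. No group overlapped another, though 39.2% of all tested genes also lay higher at 12Gy_48h than at 12Gy_24h without overlap. Relative to control it rose by 1.96 ± 0.18 on the log2 scale at 12Gy_48h (adjusted p = 1.12e-07), by 1.62 ± 0.18 at 12Gy_24h (adjusted p = 2.47e-07) and by 0.78 ± 0.19 at 4Gy_48h (adjusted p = 0.00602). Among known genes alone the first 2 values were 1.77 and 1.38 and passed, whereas the 4Gy_48h value was 0.63 with an adjusted p of 0.087. At 48 h, 12 Gy was higher than 4 Gy by 1.18 ± 0.17 (adjusted p = 0.000535). The difference of 12Gy_48h to 12Gy_24h was 0.35 (95% interval 0.02 to 0.67) and did not pass after adjustment (adjusted p = 0.0986).

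Gsta2 and Gsta3 were at the limit of detection. Gsta2 had 0, 3 and 1 reads in the 12Gy_48h libraries, 0, 1 and 0 reads in 12Gy_24h and 0 reads in all 4Gy_48h and control libraries. Gsta3, another alpha-class enzyme, had 0 to 2 reads in each library and 0 in all controls. Neither entered the test. Counts of 0 allow a level of up to 0.621 to 0.830 CPM, depending on the library, and cover counting error only.

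Gstm1, a mu-class enzyme that acts on aryl halides and epoxides, stood out at 48 h after 12 Gy. Its levels were 67.0, 71.9 and 60.6 CPM at 12Gy_48h, 32.1, 40.7 and 32.5 CPM at 12Gy_24h, 45.6, 27.3 and 30.7 CPM at 4Gy_48h and 33.1, 20.4 and 21.4 CPM in control. The 12Gy_48h libraries lay above all 9 others, and the other 3 groups overlapped. Its log2 fold change at 12Gy_48h was 1.31 ± 0.21 against control (adjusted p = 0.000122), 0.75 ± 0.20 against 12Gy_24h (adjusted p = 0.00919) and 0.85 ± 0.20 against 4Gy_48h (adjusted p = 0.0211). Among known genes alone these were 1.12, 0.80 and 0.81, and all passed. The call against 12Gy_24h was lost without 12Gy_48h replicate 2 (adjusted p = 0.0502) or 12Gy_24h replicate 3 (0.063). The call against 4Gy_48h was lost without 12Gy_48h replicate 1 (0.0675) or 2 (0.101), or 4Gy_48h replicate 2 (0.0768) or 3 (0.0912).

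At 12Gy_24h, Gstm1 was higher than control by 0.56 ± 0.21 (adjusted p = 0.0379), but not among known genes alone (0.33, adjusted p = 0.313). That call was also lost without 12Gy_24h replicate 2 (0.0548), control replicate 2 (0.0797) or control replicate 3 (0.066), and the change was 0.87 without control replicate 1. At 4Gy_48h the value was 0.45, with an adjusted p of 0.157; without control replicate 1 it was 0.76 and passed (adjusted p = 0.0122), and without 4Gy_48h replicate 1 it was 0.20.

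Gstm2, the mu-class neighbour of Gstm1, moved less. Its levels were 56.2, 62.3 and 60.6 CPM at 12Gy_48h, 56.9, 65.2 and 75.9 CPM at 12Gy_24h, 47.1, 50.7 and 54.9 CPM at 4Gy_48h and 56.9, 51.1 and 40.2 CPM in control. Every irradiated group overlapped control. At 12Gy_24h it was higher by 0.50 ± 0.15 (adjusted p = 0.0082), which did not pass among known genes alone (0.27, adjusted p = 0.21). At 12Gy_48h the log2 fold change was 0.18 (95% interval -0.13 to 0.50) and at 4Gy_48h 0.04 (-0.27 to 0.36); among known genes alone these values turned to -0.005 and -0.11.

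Gstm5, a mu-class gene best known from brain and testis, had a mean below control in all 3 irradiated groups, on few reads. It had 12, 16 and 13 reads at 12Gy_48h, 10, 10 and 11 reads at 12Gy_24h, 18, 12 and 24 reads at 4Gy_48h and 26, 23 and 15 reads in control. Its level at 12Gy_24h was 2.68 ± 0.200 CPM, against 5.15 ± 1.08 CPM in control (SD, n = 3 each), without overlap, as for 34.1% of all tested genes. The log2 fold change of -0.85 ± 0.33 passed at 12Gy_24h (adjusted p = 0.0392; -1.08 and 0.0243 among known genes alone). It did not pass under DESeq2 (adjusted p = 0.196), without a filter on low counts (0.117), or without any 1 of 12Gy_24h replicates 1, 2 and 3 and control replicates 1 and 2 (0.0874 to 0.146). At 12Gy_48h the value was -0.55 (adjusted p = 0.191) and at 4Gy_48h -0.15 (adjusted p = 0.787), which turned to 0.11 without 4Gy_48h replicate 2.

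Gstp1, the pi-class enzyme that also binds the stress kinase JNK, was the most abundant member and rose after 12 Gy. It had 1318, 1312 and 1215 CPM at 12Gy_48h, 1313, 1389 and 1546 CPM at 12Gy_24h, 1007, 816 and 892 CPM at 4Gy_48h and 1022, 800.3 and 677 CPM in control. Both 12 Gy groups lay above control, and 4Gy_48h overlapped it. The log2 fold change was 0.85 ± 0.14 at 12Gy_24h (adjusted p = 6.21e-05), and 0.62 with an adjusted p of 0.00364 among known genes alone. At 12Gy_48h it was 0.53 ± 0.14 (adjusted p = 0.00638), but 0.35 with an adjusted p of 0.0826 among known genes alone. At 4Gy_48h it was 0.12 (95% interval -0.17 to 0.40, adjusted p = 0.603), with -0.03 among known genes alone; without control replicate 1 it was 0.33 and passed (adjusted p = 0.0295). The difference of 12Gy_48h to 12Gy_24h was -0.32 (adjusted p = 0.0801) and to 4Gy_48h 0.41 (adjusted p = 0.0858), and neither passed.

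Gsto1, the omega-class enzyme that reduces dehydroascorbate and arsenic species, had 330.2, 307 and 343 CPM at 12Gy_48h, 402, 368 and 331 CPM at 12Gy_24h, 345, 318 and 332 CPM at 4Gy_48h and 257, 264 and 239 CPM in control. All 9 irradiated libraries lay above all 3 controls. It was higher than control by 0.28 ± 0.10 at 12Gy_48h (adjusted p = 0.0325), 0.62 ± 0.10 at 12Gy_24h (adjusted p = 2.39e-05) and 0.39 ± 0.10 at 4Gy_48h (adjusted p = 0.008). Among known genes alone only the 12Gy_24h value passed (0.39, adjusted p = 0.00711), and the others were 0.10 (adjusted p = 0.555) and 0.25 (adjusted p = 0.217). The 12Gy_48h call was also lost without 12Gy_48h replicate 1 (0.0728) or 3 (0.0901) or control replicate 3 (0.0647). Gsto1 was lower at 12Gy_48h than at 12Gy_24h by -0.34 ± 0.10 (adjusted p = 0.012) although the groups overlapped, and this call was lost without 12Gy_24h replicate 1 (0.0605). Gstk1, the kappa-class member, had 1 read in 12Gy_48h replicate 1, 1 read in 12Gy_24h replicate 3 and 0 in the other 10 libraries, and was not tested.

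**Figure D2:**
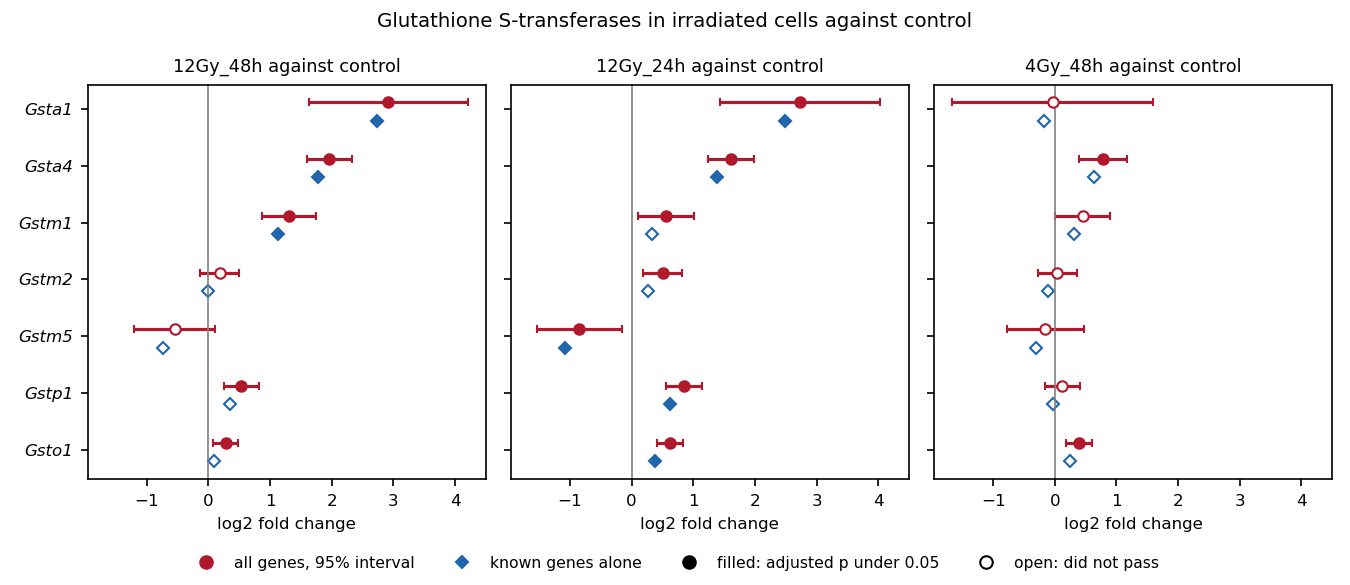
Log2 fold change against control of the 7 tested members (x axis) at 12Gy_48h, 12Gy_24h and 4Gy_48h; circles with 95% intervals were fitted over all genes and diamonds over known genes alone, and filled symbols have an adjusted p under 0.05. Gsta1 and Gsta4 lie furthest right in both 12 Gy panels under both fits, and all diamonds of the 4Gy_48h panel are open.

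Of the 10 genes, 7 passed the filter on low counts, which a gene can pass through reads in any 1 group, and the other 3 had at most 3 reads in any library; the counts that follow are of the 7. At 12Gy_48h, 5 of the 7 were higher and 0 lower than control, where 12.9% of all 15086 tested genes were higher and 20.3% lower. At 12Gy_24h, 6 were higher and 1 lower, where 18.5% of all genes were higher and 29.3% lower. At 4Gy_48h, 2 were higher and 0 lower, where 4.67% were higher and 13.2% lower. Of the 9809 known genes in the same fit, the kind to which all members belong, 18.3% passed as higher and 3.78% as lower at 12Gy_48h. For 12Gy_24h these shares were 26.6% and 3.92%, for 4Gy_48h 6.48% and 0.877%. Among known genes alone, the members called higher were 3 at 12Gy_48h, 4 at 12Gy_24h and 0 at 4Gy_48h, beside 7.09%, 9.35% and 0.927% of known genes, and those called lower were 0, 1 and 0, beside 8.37%, 7.99% and 0.825%. The median log2 fold change of the 7 was 0.53, 0.62 and 0.12 at 12Gy_48h, 12Gy_24h and 4Gy_48h. For all tested genes it was 0.006, 0.006 and 0.01, and for known genes in the same fit 0.195, 0.233 and 0.137. At 4Gy_48h the median of the members thus lay slightly below that of known genes. In the fit to known genes alone the member medians were 0.347, 0.385 and -0.025. The 3 comparisons share their control libraries.

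Between irradiated groups, fewer members differed. For 12Gy_48h against 12Gy_24h, 1 member was higher (Gstm1) and 1 lower (Gsto1), where 20.7% of all genes and 10.1% of known genes were higher, and 11.5% and 15.8% lower; the same 2 passed among known genes alone (11.4% higher and 12.9% lower). For 12Gy_48h against 4Gy_48h, 3 of the 7 were higher (Gsta1, Gsta4 and Gstm1) and 0 lower, where 2.43% of all genes and 3.1% of known genes were higher, and 2.84% and 1.91% lower, and the same 3 passed among known genes alone (3.01% higher and 3.59% lower). Leaving out a library changed this count: 1 member passed for 12Gy_48h against 4Gy_48h without 12Gy_48h replicate 1 or 2 or without 4Gy_48h replicate 2 or 3.

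**Figure D3:**
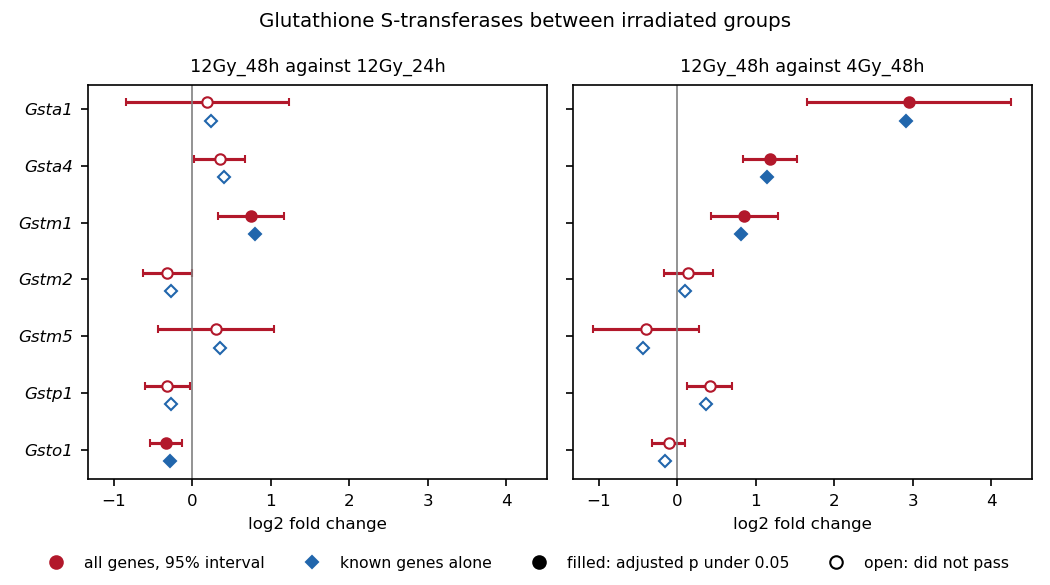
Log2 fold change of the 7 tested members (x axis) for 12Gy_48h against 12Gy_24h and for 12Gy_48h against 4Gy_48h, drawn as in the plot of changes against control: circles with 95% intervals for all genes, diamonds for known genes alone, filled where the adjusted p is under 0.05. Gsta1, at 2.96, lies furthest right in the comparison of doses, and Gstm1 and Gsto1 lie on opposite sides of 0 in the comparison of times.

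Reads on the near-identical copies did not all follow the named members. Gm3776 had 14.5 ± 3.02 CPM at 12Gy_48h, 25.3 ± 2.84 CPM at 12Gy_24h, 1.86 ± 2.41 CPM at 4Gy_48h and 1.14 ± 0.161 CPM in control (SD, n = 3 each). It was higher than control by 3.55 ± 0.57 at 12Gy_48h (adjusted p = 0.000439) and by 4.53 ± 0.53 at 12Gy_24h (adjusted p = 1.23e-05), the control groups holding 4 to 5 reads a library. Unlike Gsta1, its mean was lower at 12Gy_48h than at 12Gy_24h, by -0.98 on the log2 scale (adjusted p = 0.0581), without overlap, as for 11.1% of all tested genes. Gsta1 took 59.2 to 80.8% of the reads of Gsta1, Gm3776, Gm10639 and Gsta2 in the 12Gy_48h libraries, 54.1 to 59.9% in 12Gy_24h, 60.0 to 96.2% in 4Gy_48h and 55.6 to 88.2% in control. Summed, the 4 copies held 63.4 ± 19.5 CPM at 12Gy_48h, 63.2 ± 10.5 CPM at 12Gy_24h, 7.80 ± 4.57 CPM at 4Gy_48h and 7.68 ± 5.15 CPM in control. The summed log2 fold changes were 3.002 at 12Gy_48h (adjusted p = 0.0013) and 3.17 at 12Gy_24h (adjusted p = 0.000425), a sum chosen after the copies' counts had been seen. For 12Gy_48h against 12Gy_24h the sum gave -0.17, where Gsta1 by itself gave 0.19, and neither passed.

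For the pi class, Gstp2 had 46.8 ± 7.64 CPM at 12Gy_48h, 27.8 ± 1.21 CPM at 12Gy_24h, 15.8 ± 4.70 CPM at 4Gy_48h and 25.2 ± 3.77 CPM in control. It was higher than control at 12Gy_48h (0.80, adjusted p = 0.00248) and lower at 4Gy_48h (-0.68, adjusted p = 0.0244), both also among known genes alone. At 12Gy_48h it was higher than at 12Gy_24h by 0.58 (adjusted p = 0.0215), while the value of Gstp1 in that comparison was -0.32. A new locus, ONT.1256, which the deposited annotation describes as glutathione S-transferase P 2, had 56.8 ± 13.9 CPM at 12Gy_48h, 24.5 ± 1.59 CPM at 12Gy_24h, 27.9 ± 9.48 CPM at 4Gy_48h and 30.3 ± 10.5 CPM in control. Gstp1 took 91.3 to 93.7% of the summed reads of these 3 features in 12Gy_48h, 96.2 to 96.7% in 12Gy_24h, 94.7 to 96.7% in 4Gy_48h and 93.0 to 94.5% in control. The summed change against control was 0.55 at 12Gy_48h and 0.81 at 12Gy_24h, close to the 0.53 and 0.85 of Gstp1. How the authors assigned reads that match several copies is not given in the sources used here, so the split between copies is uncertain.

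**Figure D4:**
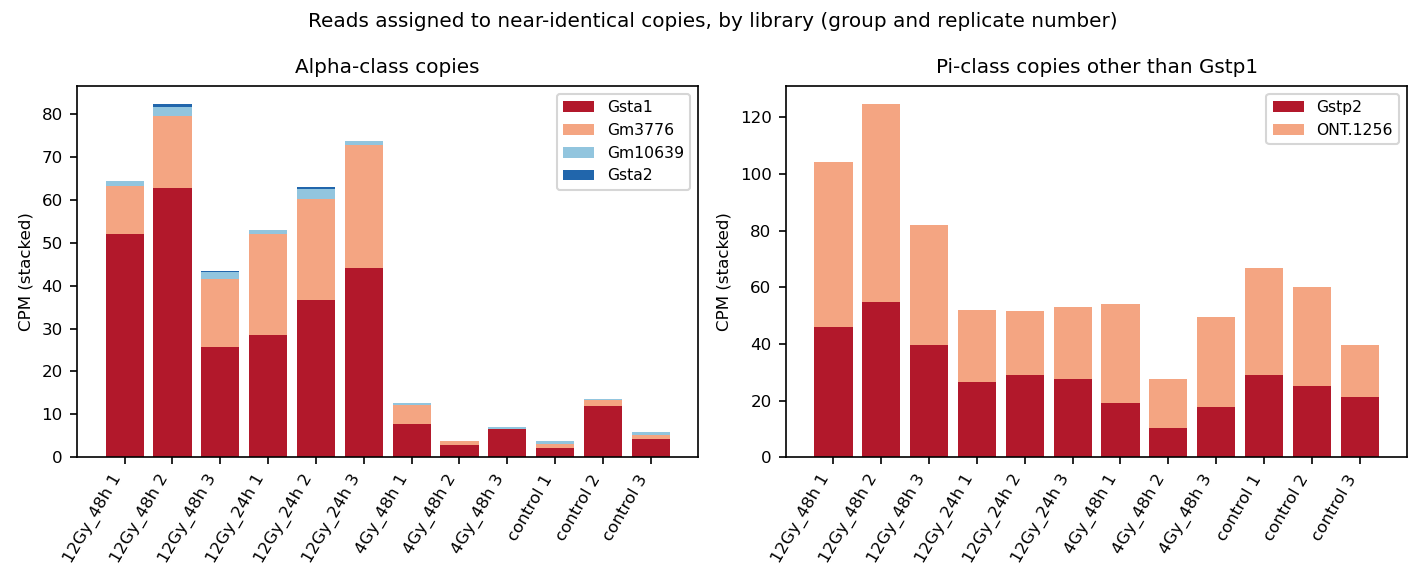
CPM assigned to the alpha-class copies Gsta1, Gm3776, Gm10639 and Gsta2 (left) and to Gstp2 and ONT.1256, the pi-class copies other than Gstp1 (right), stacked for each of the 12 libraries in the order 12Gy_48h, 12Gy_24h, 4Gy_48h, control. The alpha-class stacks of the 6 libraries given 12 Gy stand above the other 6, and the Gm3776 part is larger at 12Gy_24h, at 25.3 CPM on average, than at 12Gy_48h, at 14.5 CPM.

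The counts of the 6 lists that follow stand beside the shares of known genes given above for the same fits, 18.3% higher at 12Gy_48h, 26.6% at 12Gy_24h and 6.48% at 4Gy_48h, and are descriptions of each list. Other glutathione transferases included rises and falls. Of 20 listed genes, 19 were in the table and 7 could be tested; at 12Gy_48h 5 were higher and 0 lower than control, at 12Gy_24h 4 were higher and 1 lower, and at 4Gy_48h 3 were higher and 1 lower. Among known genes alone these counts were 3 and 1, 3 and 1, and 0 and 1. Mgst2, a microsomal transferase, rose by 0.85 at 12Gy_48h (adjusted p = 6.83e-05), by 1.05 at 12Gy_24h (1.67e-06) and by 0.46 at 4Gy_48h (0.0226). Ptges, the inducible prostaglandin E synthase of the same membrane family, rose by 0.95, 0.97 and 0.61 (adjusted p = 0.000106, 2.96e-05 and 0.00912). At 4Gy_48h neither passed among known genes alone (adjusted p = 0.254 for Mgst2 and 0.13 for Ptges). Mgst3 was 12.2 CPM at 12Gy_24h, against 4.62 CPM in control, a log2 fold change of 1.43 (adjusted p = 0.000471). Gsto2, the neighbour of Gsto1, ran the other way and fell to 30.1 CPM at 12Gy_24h, against 51.9 CPM in control (-0.69, adjusted p = 0.0123; -0.93 and 0.0114 among known genes alone).

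Genes of glutathione synthesis and turnover were mixed. Of 15 tested, 6 passed as higher and 1 as lower at 12Gy_48h (18.3% and 3.78% of known genes). For 12Gy_24h the counts were 9 and 1 (26.6% and 3.92%), for 4Gy_48h 2 and 0 (6.48% and 0.877%), but among known genes alone the counts were 0 and 1, 3 and 1, and 0 and 0. The 2 subunits of glutamate-cysteine ligase, the rate-limiting enzyme of glutathione synthesis, rose at 12Gy_48h by 0.64 (Gclc, adjusted p = 0.0165) and 0.52 (Gclm, adjusted p = 0.0141), and neither passed among known genes alone (adjusted p = 0.114 and 0.141). Slc7a11, the cystine importer, had 38.2 CPM at 12Gy_24h, against 19.0 CPM in control (1.12, adjusted p = 0.0152; 0.115 among known genes alone). Glrx, which removes glutathione from proteins, rose by 1.23 at 12Gy_24h (adjusted p = 7.99e-07; 1.00 and 6.01e-05 among known genes alone). Chac1, which degrades glutathione, had 38.0 CPM at 12Gy_48h, against 74.3 CPM in control, and fell by 1.06 (adjusted p = 0.00017; -1.25 and 0.000129 among known genes alone). At 12Gy_24h its level was 84.1 CPM, a value of 0.26 against control that did not pass (adjusted p = 0.235), and 12Gy_48h was lower than 12Gy_24h by -1.32 (adjusted p = 2.39e-05).

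Of the glutathione peroxidases, 4 of 9 listed genes were tested: 1 was higher at 12Gy_48h (Gpx4, the lipid peroxide reductase, 0.36), 4 at 12Gy_24h and 1 at 4Gy_48h (Gpx4, 0.31), and 0, 2 and 0 among known genes alone. Gpx1 had 438 CPM at 12Gy_24h, against 262 CPM in control (0.83, adjusted p = 3.02e-05), and Prdx6 had 515 CPM, against 363 CPM in control (0.59, adjusted p = 0.000139). At 12Gy_48h their values against control were 0.10 and -0.04 and did not pass. Of 5 tested pumps that can export glutathione conjugates, 2 were higher at 12Gy_48h, 2 at 12Gy_24h and 0 at 4Gy_48h, and 1, 1 and 0 among known genes alone. Abcc1, the pump best known for this export, rose by 0.57 at 12Gy_48h (adjusted p = 0.0267; 0.205 among known genes alone) and by 0.91 at 12Gy_24h (0.000624; 0.0248 among known genes alone). Abcc5 had 23.1 CPM at 12Gy_48h, against 11.5 CPM in control (0.92, adjusted p = 0.0043).

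Among 11 tested genes of other conjugation and detoxification enzymes, 3 passed as higher and 0 as lower at 12Gy_48h; for 12Gy_24h these counts were 5 and 2, for 4Gy_48h 1 and 0. Among known genes alone the counts were 2 and 1, 2 and 3, and 0 and 0. Nqo1, a quinone reductase and a common marker of NRF2 activity, had 36.2 CPM at 12Gy_48h and 37.9 CPM at 12Gy_24h, against 8.25 CPM in control, changes of 2.07 (adjusted p = 0.000152) and 2.31 (adjusted p = 1.91e-05) that also passed among known genes alone. Ephx1, an epoxide hydrolase, fell to 53.6 CPM at 12Gy_24h, against 86.3 CPM in control (-0.60, adjusted p = 0.000614). At 12Gy_48h its level was 112 CPM, with a value of 0.29 against control that did not pass (adjusted p = 0.0855), and 12Gy_48h was higher than 12Gy_24h by 0.89 (adjusted p = 3.4e-05). Of 7 tested genes of NRF2 control, NRF2 itself and its partners among them, 5 were higher at 12Gy_48h and 0 at 4Gy_48h. At 12Gy_24h 2 were higher, a share near that of known genes. Among known genes alone the counts were 2, 1 and 0 at 12Gy_48h, 12Gy_24h and 4Gy_48h. The transcript of NRF2 itself, Nfe2l2, differed from control by 0.04, 0.30 and -0.11 in these groups and did not pass (it is named after its values were seen). Mafg, a partner that binds DNA with NRF2, rose by 0.66 at 12Gy_48h (adjusted p = 0.00228, and 0.0329 among known genes alone). At 12Gy_24h Mafg rose by 0.57 (adjusted p = 0.004), but did not pass among known genes alone (0.33, adjusted p = 0.132). Cul3, of the same list, rose by 0.51 at 12Gy_48h (adjusted p = 0.013, and 0.146 among known genes alone). At 12Gy_24h Cul3 rose by 0.73 (adjusted p = 0.000371) and was the gene of this list that passed among known genes alone (0.50, adjusted p = 0.0213).

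**Figure D5:**
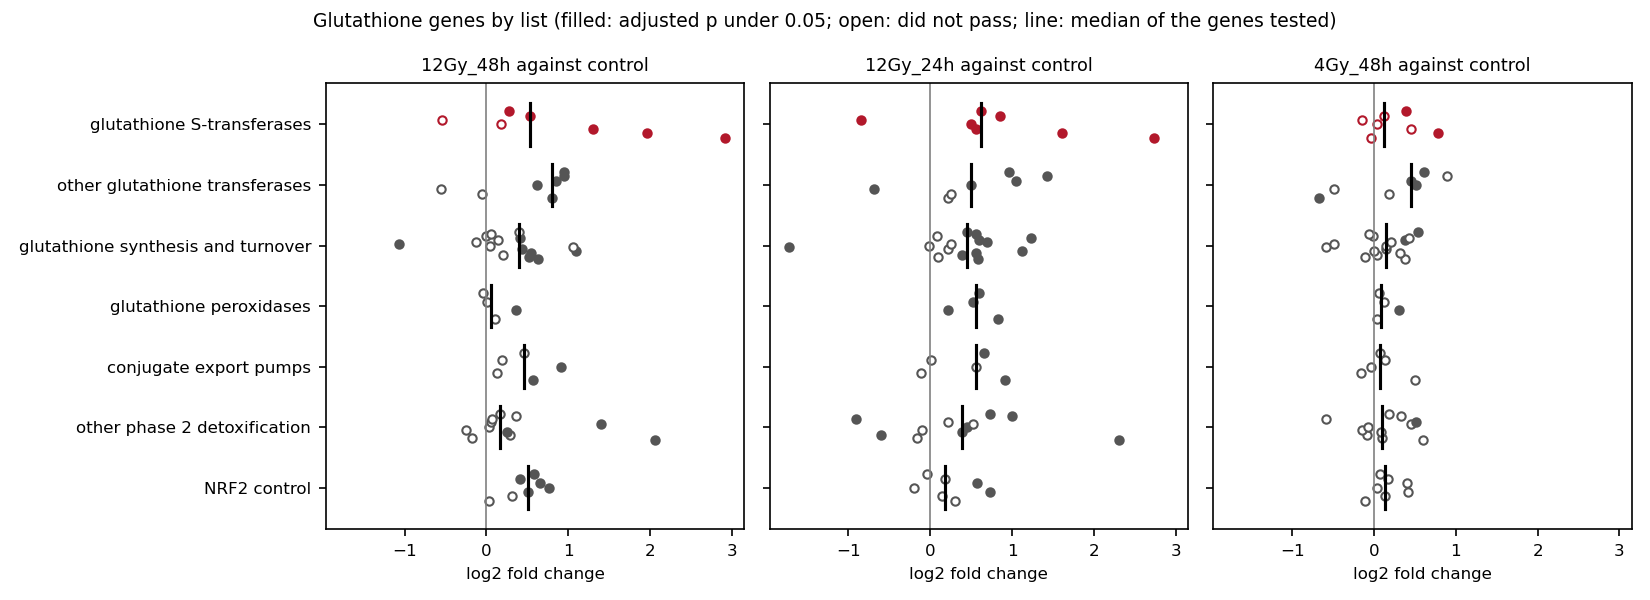
Log2 fold change against control (x axis) of each tested gene, 1 point a gene, for the glutathione S-transferases (top row) and 6 lists of related genes at 12Gy_48h, 12Gy_24h and 4Gy_48h; filled points have an adjusted p under 0.05 in the fit to all genes and vertical lines are medians. The medians of the glutathione S-transferases are 0.53, 0.62 and 0.12, beside 0.195, 0.233 and 0.137 for known genes in the same fit. Gsta1, at 2.92 and 2.73, is the point furthest right in both 12 Gy panels.

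The members did not form 1 pattern across the 12 libraries. Pairwise Pearson correlations of log2 CPM ran from -0.558 (Gstm5 and Gsto1) to 0.878 (Gstm2 and Gstp1), with 0.868 for Gsta1 and Gsta4 and 0.337 for Gstm1 and Gstm2; all points share the same libraries, depths and 4 groups. Among 9516 known genes ranked by likeness over the 12 libraries, the genes most like Gstp1 were Fth1 (the ferritin heavy chain, r = 0.968), Blvrb (0.956), Clptm1 (0.953), Nans (0.953) and Dctn2 (0.951). Those most like Gsta1 were Cat (catalase, r = 0.970), Slc7a11 (0.969), Procr (0.966), Prr13 (0.964) and Hmox1 (heme oxygenase, 0.962). Fth1 averaged 4970 CPM at 12Gy_48h, 6550 CPM at 12Gy_24h, 3290 CPM at 4Gy_48h and 3140 CPM in control, and Cat averaged 25.7, 21.2, 10.5 and 11.3 CPM in the same groups.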

How the data were processed

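RNA-seq of MODE-K cells gave 12 libraries in 4 groups of 3, taken from the labels. Per the submitters' processing notes, cutadapt 1.9 trimmed adapters and FastQC checked reads; aligner, genome build, strandedness and the treatment of reads matching several copies: not given in the sources used here. An Illumina library protocol stands in the labels, while assembled loci carry the prefix ONT, so the platform is unsettled. Raw read counts per gene, made by the authors, fill the deposited table, beside their CPM (the count scaled to a common column total; recomputed values differed by at most 4.78e-06) and columns of their own DESeq2 results, which were not used. Its 33636 lines include 11 that are overflow of a long cell. Symbols were matched by Ensembl identifier (22022 of 22036 known genes), positions and coding sequences came from GENCODE M21 (GRCm38), and promoters from RefSeq (GRCm38.p6, 9 of 10 members).

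The test was a robust quasi-likelihood fit of edgeR 4.0.16 (R 4.3.3; filterByExpr filter, TMM scaling, 1 mean per group, all 12 libraries; coefficient of variation 0.144), and 2-sided p-values were adjusted by Benjamini-Hochberg over the 15086 genes tested; a gene was called at an adjusted p under 0.05. Values after ± are SE for log2 fold changes and SD over 3 libraries for CPM. Intervals of fold changes are 95% intervals of the fit; limits from counts of 0 (3 counts) cover counting error only. Coding identity was computed with Biopython 1.88 from the longest annotated coding sequence of each gene, as identical bases over the longer sequence of a pair. The fit was tested on simulated data. Alternatives were a filter at a group mean of 5 CPM, an absent filter, RLE scaling, DESeq2 1.42.0, known genes alone, summed copies, the replicate number as a block, and leaving out each library. Replicate pairs all differed beyond sampling noise, so none was merged.

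All 10 members were named. Other genes were named from 6 lists as called against control, up to 4 per list and comparison by adjusted p, and by correlation with Gstp1 (highest mean CPM) and Gsta1 (largest called change). Members, lists and tests were chosen with earlier results of these data known.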

Additional observations from a re-analysis of the deposited data

Results flagged for a closer look

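For 5 results, a direct test between 2 irradiated groups passed, which is also the test that their changes against the shared control differ. Between 48 h and 24 h after 12 Gy, Gstm1 differed by 0.75 on the log2 scale (66.5 ± 5.71 CPM at 12Gy_48h and 35.1 ± 4.85 CPM at 12Gy_24h, SD, n = 3 each) and Gsto1 by -0.34 (327 ± 18.5 CPM at 12Gy_48h and 367 ± 35.5 CPM at 12Gy_24h). Between 12 Gy and 4 Gy at 48 h, Gsta1 differed by 2.96 (46.9 ± 19.1 CPM at 12Gy_48h and 5.68 ± 2.60 CPM at 4Gy_48h), Gsta4 by 1.18 (45.4 ± 2.93 CPM at 12Gy_48h and 18.8 ± 4.33 CPM at 4Gy_48h) and Gstm1 by 0.85 (66.5 ± 5.71 CPM at 12Gy_48h and 34.5 ± 9.74 CPM at 4Gy_48h). Groups of 3 libraries are too small for a search for single outlying libraries.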

How the results depend on the processing

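Of 19 calls of members in the 5 comparisons, 8 passed with the same direction in every alternative that gave a value for them: Gsta1, Gsta4 and Gstm1 at 12Gy_48h, and Gsta1, Gsta4, Gstp1 and Gsto1 at 12Gy_24h, against control, and Gsta4 for 12Gy_48h against 4Gy_48h. The fit to known genes alone, which tests 9816 genes and leaves out the new loci, called 1518, 1702 and 172 genes against control at 12Gy_48h, 12Gy_24h and 4Gy_48h, in place of 5013, 7222 and 2689, and 2385 in place of 4857 for 12Gy_48h against 12Gy_24h. The larger counts include new loci. Of the 9809 known genes in the fit to all genes, 1797 were higher and 371 lower than control at 12Gy_48h. These counts were 2609 and 385 at 12Gy_24h, 636 and 86 at 4Gy_48h, and 991 and 1547 for 12Gy_48h against 12Gy_24h. The fit to known genes alone called 3 members at 12Gy_48h and 0 at 4Gy_48h in place of 5 and 2. It turned Gstm2 to -0.005 and -0.106 there and Gstp1 at 4Gy_48h to -0.025. For 12Gy_48h against 12Gy_24h, 4 members passed under RLE scaling and without a filter, in place of 2, the added calls being Gstm2 and Gstp1 (lower), and Gstp1 also passed under DESeq2 (adjusted p = 0.0255). RLE scaling also ended the call of Gsto1 at 12Gy_48h (adjusted p = 0.0549). Gsta1 at 4Gy_48h turned to 0.038 without a filter, 0.017 with the replicate block and 0.071 with all copies summed, and to -0.169 for 12Gy_48h against 12Gy_24h with all copies summed. The cause of these changes was not tested.

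Replicate numbers did not pair the libraries (correlation of deviations -0.111 to 0.125 in 18 same-numbered pairs and -0.125 to 0.167 in 36 others). With the replicate block, Gsta1 for 12Gy_48h against 4Gy_48h was 2.91 with an adjusted p of 0.0508, Gstm5 at 12Gy_24h was -0.85 with an adjusted p of 0.0521, and no other member call changed.

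Leaving out 1 library at a time gave 4 to 5 member calls at 12Gy_48h, 5 to 6 at 12Gy_24h, 2 to 4 at 4Gy_48h, 1 to 3 for 12Gy_48h against 12Gy_24h and 1 to 3 for 12Gy_48h against 4Gy_48h. All genes called ran from 4017 to 4876, 7069 to 7847, 1626 to 3040, 3433 to 4699 and 134 to 541 in these comparisons. At 4Gy_48h, Gsta1 ran from -0.47 to 0.90, Gstm2 from -0.043 to 0.195 and Gstm5 from -0.43 to 0.11, and for 12Gy_48h against 12Gy_24h Gsta1 ran from -0.12 to 0.48. With 10 to 26 reads a library for Gstm5 and 0 to 3 for Gsta2, Gsta3 and Gstk1, depth limits what can be said of these genes.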
